A study of Mus musculus with 8 samples.

Results

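Genes of retinoid handling and retinoic acid signalling were examined in cells captured by laser from the mouse yolk sac. The 9 genes are Rbp2, Crabp1 and Crabp2 (binding proteins), Stra6 (uptake), Aldh1a1 and Aldh1a2 (synthesis), Cyp26a1 (breakdown), and Rara and Rarg (receptors). They were taken by name, through the array's gene annotation, and are read by 10 of the 22626 probe sets that are no controls, which name 12394 genes. Each gene has 1 probe set except Rarg, which has 2.

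Erythroid captures held primitive erythroid precursors, the red cell precursors that form in the yolk sac, and epithelial captures held yolk sac epithelial cells, the non-erythroid control of the study. All tissue came from FVB/N mice, an inbred strain, at embryonic day 9.5, and the labels name no engineered allele and no treatment with an agent. There were 4 erythroid and 4 epithelial samples in 4 pairs, and both samples of a pair were taken from the same slides, each pair pooling 2 to 4 yolk sacs of 2 litters. Between 10 and 39 ng of RNA was amplified and hybridised to 1 Affymetrix array per sample. An erythroid cell took 2 to 3 laser pulses and an epithelial cell 1.

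Vitamin A reaches cells as retinol bound to a serum carrier. Cells oxidise retinol to retinal and retinal to retinoic acid, which binds nuclear receptors that sit on DNA together with retinoid X receptors, and Cyp26 enzymes break it down. The visceral endoderm, the outer epithelium of the yolk sac, is known as a source of the serum retinol carrier before the fetal liver takes over, and mouse embryos that lack Aldh1a2 fail to form normal yolk sac vessels.

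Cyp26a1 is a textbook target of retinoic acid, and its start region shows what a response element looks like in sequence. The element is a direct repeat of half-sites, and a half-site was taken as AGGTCA or as AGTTCA or as GGGTCA or as GGTTCA, with 1, 2 or 5 bases between the pair, on both strands. RefSeq windows of 300 bases, from 250 before to 50 after an annotated gene start (GRCm38.p6), were found for 8 of the 9 genes, in 16 windows. A repeat was present in 1 of the 16 windows, that of Cyp26a1, with 5 bases between the half-sites. Of 32817 distinct windows of this kind, all at annotated gene starts, 0.0975% held a repeat with 5 bases between and 0.588% a repeat of any of the 3 kinds. The windows of Cyp26a1 (chr19:37697558-37697857, + strand) and, for contrast, Crabp1 (chr9:54764498-54764797, + strand), which has neither a repeat nor a half-site, read 5′ to 3′, with the half-sites of the repeat in capitals:
Cyp26a1: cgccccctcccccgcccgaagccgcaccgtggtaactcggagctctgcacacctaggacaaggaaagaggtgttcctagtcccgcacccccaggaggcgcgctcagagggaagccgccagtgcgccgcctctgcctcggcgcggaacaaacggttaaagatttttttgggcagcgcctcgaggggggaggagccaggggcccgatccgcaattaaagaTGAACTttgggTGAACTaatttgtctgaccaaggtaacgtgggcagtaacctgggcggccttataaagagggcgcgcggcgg
Crabp1: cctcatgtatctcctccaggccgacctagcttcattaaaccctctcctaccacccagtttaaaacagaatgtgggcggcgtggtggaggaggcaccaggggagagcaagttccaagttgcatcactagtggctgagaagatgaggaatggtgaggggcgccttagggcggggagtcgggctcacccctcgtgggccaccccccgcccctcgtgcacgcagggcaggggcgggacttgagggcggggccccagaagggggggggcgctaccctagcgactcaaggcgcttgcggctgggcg
The Cyp26a1 repeat (chr19:37697776-37697792) begins 32 bases before the annotated start that set this window. The annotated span of the gene opens further upstream, at 37697738, so the repeat lies inside that span. Read on the other strand it is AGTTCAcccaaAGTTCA. A match is a description of the sequence, not evidence of binding.

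The arrays had a median signal of 81.5 to 127. The background level of an array, the 95th percentile of 117 probe sets for genes that neither cell type should use, such as odorant receptors and beta-defensins, lay between 55.1 and 133. The labelled cell types were borne out by their markers in part: of 10 erythroid genes tested, 7 were higher in erythroid captures and 0 lower, and of 12 visceral endoderm genes, 0 were higher and 10 lower. Epithelial captures still held erythroid marker signal (summed 47813 to 91578.5, against 75530.5 to 145582 in erythroid captures), and erythroid captures held visceral endoderm signal (67761.6 to 103126, against 109329 to 182847 in epithelial captures). Markers of mesenchyme and mesothelium were higher in erythroid captures for 7 of 11 tested genes and lower for 0, with a summed signal of 39751.9 to 61225.5, against 9002.14 to 35374.3 in epithelial captures. A measure of RNA shortening differed between sets of pairs: the 3'-end probe set of the Gapdh control was 38.7 to 44.4 times as bright as its 5'-end one in pairs 1 and 2, and at most 17.4 times in pairs 3 and 4, so values within each set of pairs stand beside the results. In bulk captures, fewer cells of a type and less RNA per cell cannot be told apart.

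Most of the 9 genes gave little signal in either capture. Of the 80 member values, 27.5% lay above the background level of their array, against 52.6% of all values. Of the 10 probe sets, 0 were above background on all 8 arrays, where 36.5% of all probe sets were, and 3 were above it on no array, where 27.1% of all probe sets were. Testing was limited to probe sets at or above the array median on 4 or more arrays. Of all probe sets 50.6% passed this filter, and of the members 2 of 10 did, those of Crabp2 and Rarg. In the limma fit with the pair as a term, 0 of these 2 differed between captures at an adjusted p under 0.05, and 1, Rarg, did at an unadjusted p under 0.05. Of all 11449 probe sets tested, 13.9% passed the adjusted threshold (6.20% higher and 7.69% lower in erythroid captures) and 29.9% the unadjusted one. With no filter, 10 member probe sets entered the fit, 0 were called and 1 had an unadjusted p under 0.05, beside 5.64% and 18.7% of all probe sets. A single array stood far apart from the other 3 of its group, by Dixon's gap, for 3 of 10 member probe sets in erythroid and 2 of 10 in epithelial captures, against 9.04% and 7.85% of all probe sets.

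**Figure D1:**
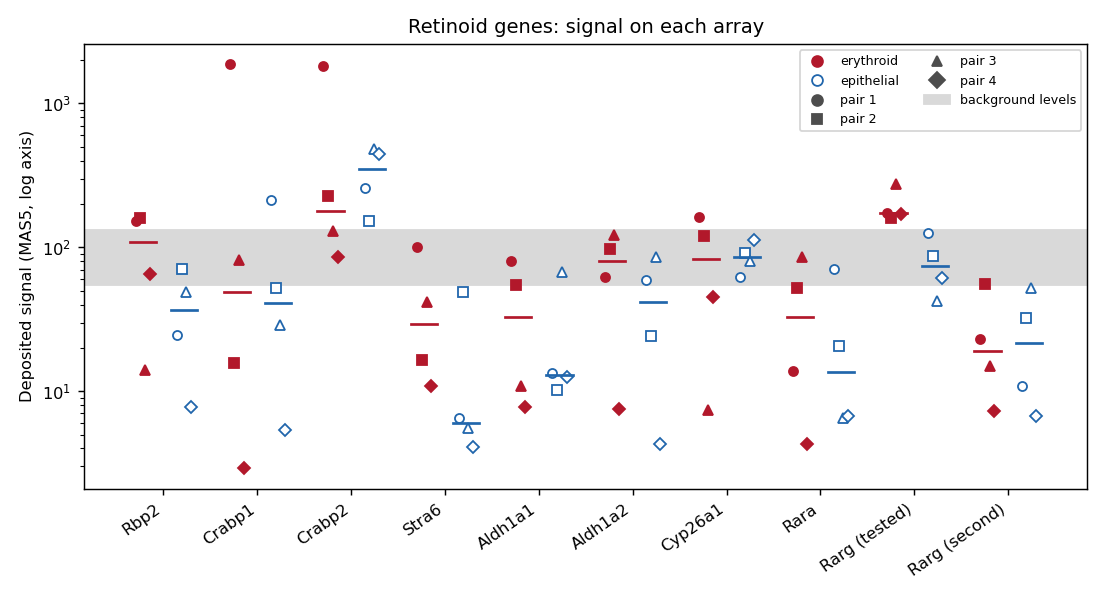
Deposited signal (log axis) of the 10 probe sets on each array, erythroid as filled red and epithelial as open blue symbols, with the symbol shape giving the pair, a line at each group's median and a grey band from the lowest to the highest background level of the 8 arrays. Most points lie in or under the band, and Crabp1 and Crabp2 each have 1 erythroid array far above the other arrays.

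Crabp1 and Crabp2 are small cytosolic proteins that bind retinoic acid, and Crabp2 is known to pass it to the receptors. Crabp1 had signals of 1872, 15.8, 81.8 and 2.91 on the erythroid arrays of pairs 1 to 4, against 214, 52.4, 29.0 and 5.37 on the epithelial arrays. The erythroid array of pair 1 was the highest and the epithelial array of the same pair the next, and no other array was above background. The groups overlapped, and Crabp1 was too dim on the other arrays to be tested. Its mean difference was 0.54 on the log2 scale (SD 1.78, n = 4 pairs) and -0.25 without replicate 1, so that 1 pair decides its sign.

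Crabp2 had signals of 1814, 228, 130 and 85.2 on the erythroid arrays of pairs 1 to 4, against 259, 153, 485 and 442 on the epithelial arrays. Erythroid captures were the higher in pairs 1 and 2, and epithelial captures in pairs 3 and 4. The log2 differences of pairs 1 to 4 were 2.60, 0.85, -1.99 and -2.21, and their mean was -0.19 ± 0.66 (SE, limma adjusted p = 0.883). Crabp2 thus had no common direction over the pairs. It averaged 1.73 over pairs 1 and 2, against -2.10 over pairs 3 and 4. It was 0.42 without replicate 3, 0.49 without replicate 4 and -1.11 without replicate 1.

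A test of whether the difference between captures itself differed between pairs 3 and 4 and pairs 1 and 2 gave -3.82 ± 0.58 for Crabp2 (SE, limma adjusted p = 0.00222). This test called 1.84% of all probe sets tested, and 1 of the 2 members tested. Without replicate 1, which left pair 2 alone to stand against pairs 3 and 4, the value was -2.95. The sign thus stayed with the bright array of pair 1 left out, but a single pair gives no spread within its set. With all pairs in the fit, Crabp2 was not called when the variances were moderated without a trend (limma adjusted p = 0.361). RNA quality parts the same sets of pairs. So does the marker contrast between captures: the median difference of erythroid markers was 1.15 over pairs 1 and 2 and 2.92 over pairs 3 and 4. For mesenchyme and mesothelium it was 0.38 and 2.39, and for visceral endoderm -1.05 and -1.65. The part of RNA quality or of cell mixture in the Crabp2 result was not tested.

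Some genes of neural tissue, not all of those looked at, were high on the same array as Crabp1 and Crabp2. They were looked for after these values were seen. Of all probe sets, 0.110% (25 in number) were above background on the erythroid array of pair 1 and at least 4 times as bright there as on every other array, and Crabp1 was among them. So were Sox2 and Sox11, transcription factors of neural progenitors, Hes5, a Notch target, Nr2f1, a nuclear receptor of the developing brain, and Cdh2, N-cadherin. The 25 were not all neural. The trophoblast gene Prl4a1 stood furthest apart (1505, 11.3 times the next array), and a probe set of Tpbpa, also of trophoblast, was among them (1088, 7.64 times). Crabp2 was highest on that array but not among the 25. The erythroid arrays of pairs 2 and 3 had 25 and 29 such probe sets of their own, so the number is not particular to pair 1.

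A list of 30 genes of the developing nervous system was drawn up with these values known and holds several of the genes just named, so its counts are a description and no test. Of its 29 genes measured, 17 were highest on the erythroid array of pair 1, 2 of them (Elavl3 and Olig2) under background there, and 12.3% of all probe sets had their highest value on that array. Sox2 had signals of 1770, 2.07, 51.6 and 2.60 on the erythroid arrays of pairs 1 to 4, against 321, 58.2, 21.3 and 2.40 on the epithelial arrays. Fabp7, a fatty acid binding protein of radial glia, had 2261, 16.8, 52.7 and 11.1, against 994, 16.1, 43.8 and 4.02 on the epithelial arrays. Both were highest on the erythroid and next on the epithelial array of pair 1, the order that Crabp1 showed.

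Summed over the 29 genes, the signal was 12378.9, 1844, 1702 and 1337 on the erythroid arrays of pairs 1 to 4, against 4088, 2278, 1203 and 740.9 on the epithelial arrays. The first sum rests largely on a few genes, Fabp7 (2261), Sox2 (1770), Cdh2 (1698), Nr2f1 (1421) and Sox11 (1096). All of these but Fabp7 were named above for being bright on that array, so the sum in part restates that choice. Of the 29 genes 18 were above background on the erythroid array of pair 1 and 10 on no array. Among these 10 were the neural genes Sox1, Pax6, Dcx, Tubb3 and Pou3f2. Sox3 was under background on the erythroid array of pair 1 (94.9). Nes was highest on the epithelial array of pair 1 (369, against 341 on the erythroid array of that pair). Of the 4 of them that passed the filter, 0 were called between captures. Of 6 trophoblast genes measured of 10 listed, 2 (Prl4a1 and Tpbpa) were highest on that array, 3 (Prl8a9, Ascl2 and Plac1) on the erythroid array of pair 2 and 1 (Peg10) on the epithelial array of pair 1. Their summed signal was 1878, 905.9, 202 and 283 on the erythroid arrays, against 226, 336, 331 and 229 on the epithelial arrays. Tpbpa entered this sum through a probe set with 104 on the erythroid array of pair 1, not through the one with 1088 there. The part of such signal in the Crabp1 and Crabp2 values was not tested.

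**Figure D2:**
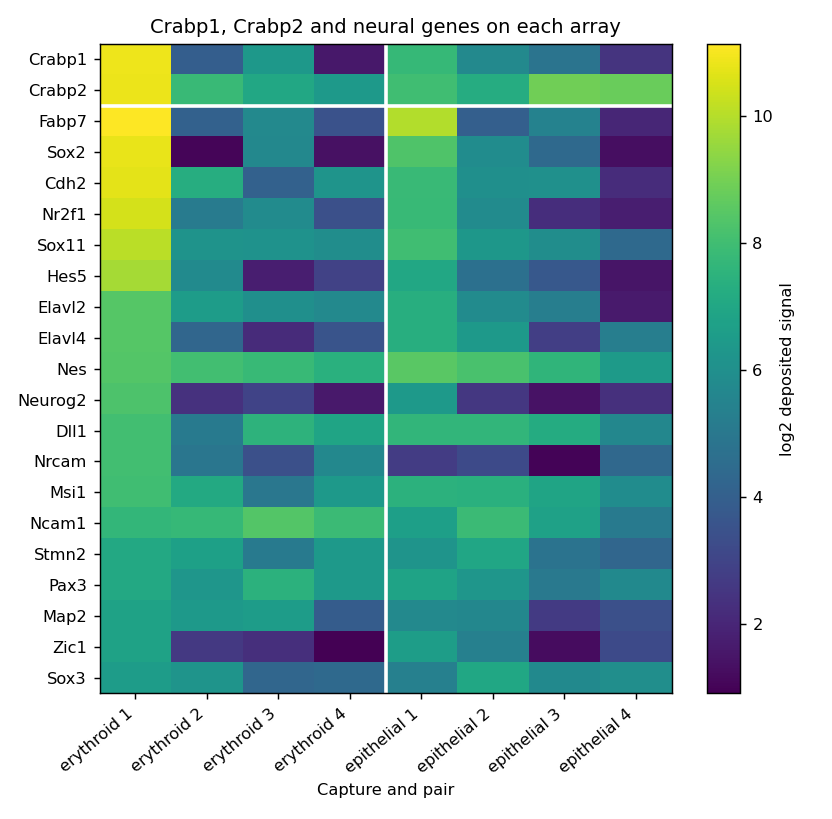
Log2 deposited signal of Crabp1 and Crabp2 (upper rows) and of the 19 neural genes above background on at least 1 array (lower rows) on the 4 erythroid (left) and 4 epithelial arrays (right), with yellow for bright and dark blue for dim. The column of the erythroid array of pair 1 is bright for Crabp1, Crabp2, Fabp7, Sox2, Cdh2, Nr2f1 and Sox11, and Crabp2 is also bright on the epithelial arrays of pairs 3 and 4.

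Rbp2 is the cellular retinol-binding protein best known from the absorbing cells of the small intestine. Its signals were 152, 160, 13.96 and 65.3 on the erythroid arrays of pairs 1 to 4, against 24.6, 70.8, 48.8 and 7.71 on the epithelial arrays. Only the erythroid arrays of pairs 1 and 2 were above background, and 0 of 4 epithelial arrays were. The difference was above 0 in 3 of 4 pairs, with a mean of 0.97 (SD 1.77, n = 4 pairs) and an adjusted p of 0.509 in the limma fit without the filter.

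Stra6 is the membrane receptor that takes up retinol from its serum carrier. It was above background on 1 of 8 arrays, the erythroid array of pair 1. The signals were 101, 16.5, 41.7 and 10.9 on the erythroid arrays of pairs 1 to 4, against 6.48, 49.1, 5.53 and 4.09 on the epithelial arrays. The groups overlapped through the epithelial array of pair 2, and the mean difference of 0.92 (SD 1.60, n = 4 pairs) was 0.30 without replicate 1.

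Aldh1a1 and Aldh1a2 oxidise retinal to retinoic acid, and Aldh1a2 supplies most of it in the early mouse embryo, chiefly from mesoderm. Aldh1a1 was above background on 0 of 8 arrays, with signals of 7.79 to 79.7 in erythroid and 10.1 to 67.7 in epithelial captures. Aldh1a2 had signals of 61.8, 98.0, 121 and 7.53 on the erythroid arrays of pairs 1 to 4, against 59.3, 24.3, 85.0 and 4.31 on the epithelial arrays. It was above background on the erythroid array of pair 3 alone, and both arrays of pair 4 were near the bottom of the scale. Its mean difference was 0.51 (SD 0.98, n = 4 pairs), less than the spread between pairs, with an adjusted p of 0.716 in the limma fit without the filter. The mesenchyme and mesothelium markers given above were higher in the erythroid captures, and their part in the Aldh1a2 values was not tested.

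Cyp26a1, whose window holds the repeat printed above, oxidises retinoic acid and clears it from cells. Its signals were 162, 119, 7.34 and 45.5 on the erythroid arrays of pairs 1 to 4, against 62.7, 91.7, 80.1 and 113 on the epithelial arrays. It was above background on the erythroid arrays of pairs 1 and 2 and on the epithelial array of pair 4. The mean difference was -0.62 (SD 1.78, n = 4 pairs), averaging 0.85 over pairs 1 and 2, against -2.08 over pairs 3 and 4.

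Cyp26a1, Aldh1a1, Crabp2 and the dimmer Rarg probe set all differed upward in pairs 1 and 2 and downward in pairs 3 and 4. This pattern was picked out after the values were seen, and its count, 4 of 10 member probe sets beside 5.29% of all probe sets, is a description from which nothing is read. Aldh1a1 and the dimmer Rarg probe set were above background on 0 of 8 arrays, so their signs rest on values under background. Of the 4, only Crabp2 passed the test of the change. In the fit without the filter the interaction was -3.36 ± 1.14 for Aldh1a1 (SE, limma adjusted p = 0.271), -2.93 ± 1.07 for Cyp26a1 (adjusted p = 0.328) and -1.62 ± 1.11 for the dimmer Rarg probe set (adjusted p = 0.703). Dhrs3, a retinal reductase, had the same signs but did not pass, averaging 0.40 over pairs 1 and 2 and -1.15 over pairs 3 and 4 (adjusted p of the limma interaction 0.159). Lpl, a lipase of the pathway, had the opposite signs and did not pass either. It averaged -0.53 over pairs 1 and 2 and 0.83 over pairs 3 and 4 (adjusted p of the limma interaction 0.11). Nothing is read from either gene.

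**Figure D3:**
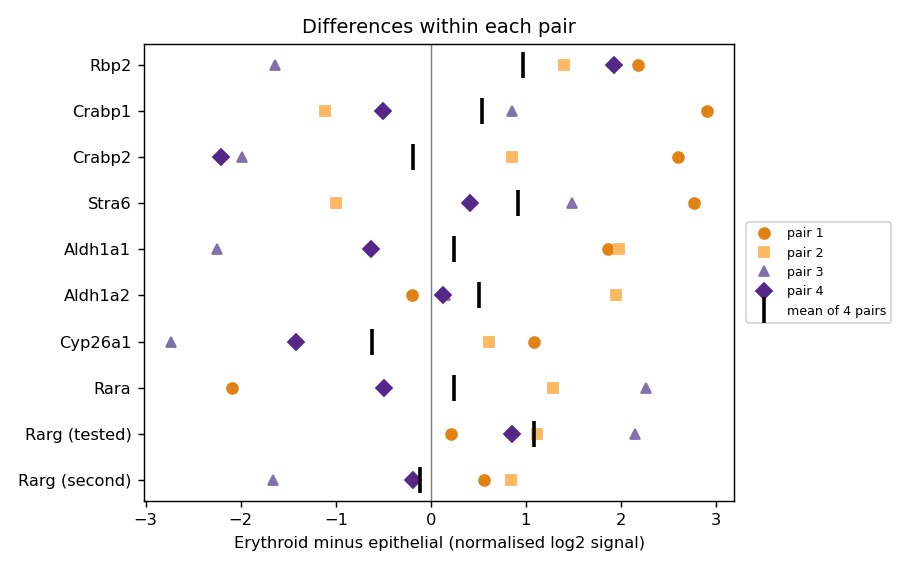
Erythroid minus epithelial difference of normalised log2 signal within each of the 4 pairs (symbols) and the mean of the pairs (black bar) for the 10 member probe sets. The symbols of Rarg (tested probe set) all lie above 0, and those of the other 9 probe sets lie on both sides of it.

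Rara and Rarg encode retinoic acid receptors, which bind the half-sites shown above as partners of retinoid X receptors. Rarg (its brighter probe set) had signals of 173, 159, 277 and 171 on the erythroid arrays of pairs 1 to 4, against 126, 87.6, 42.7 and 60.9 on the epithelial arrays. Each erythroid array was above each epithelial array, a separation found in 12.5% of the probe sets tested and, with or without a test, in 1 of 10 member probe sets and 7.96% of all. Erythroid captures were above background on 4 of 4 arrays and epithelial captures on 2 of 4. The difference was 1.08 ± 0.41 on the log2 scale (SE, higher in 4 of 4 pairs, limma adjusted p = 0.104), and so did not pass. It averaged 0.67 over pairs 1 and 2 and 1.501 over pairs 3 and 4, and passed when pairs 3 and 4 were fitted alone (adjusted p = 0.0428). That fit called many more probe sets, 1402 higher and 1457 lower of 11449, against 710 and 881 over all pairs. The Rarg interaction between the 2 sets of pairs was 0.84 ± 0.83 (adjusted p = 0.719).

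The second Rarg probe set was above background on 0 of 8 arrays, with signals of 7.32 to 55.2 in erythroid and 6.69 to 52.0 in epithelial captures, and a mean difference of -0.11 (SD 1.12, n = 4 pairs). The value for Rarg therefore rests on 1 of its 2 probe sets. Rara was above background on 0 of 8 arrays, with 13.8, 51.8, 85.9 and 4.31 on the erythroid arrays of pairs 1 to 4, against 70.5, 20.7, 6.53 and 6.74 on the epithelial arrays. Its differences were above 0 in 2 of 4 pairs.

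Some other genes of the pathway showed clearer differences, most of these toward the epithelial cells. Of 59 genes listed beside the 9, 51 were measured and 26 tested, 1 of which rose in erythroid captures and 5 of which fell. The other 20 were not called, and without a variance trend 0 rose and 2 fell. Over all genes tested, 14.9% were called, 6.03% higher and 8.87% lower. The median difference of the 26 was -0.25 on the log2 scale, against -0.01 over all genes tested. Fitted apart, pairs 1 and 2 had a median of -0.39 and pairs 3 and 4 one of -0.36. As many as 16 of the 51 were above background on no array, among them the retinyl ester enzyme Lrat and the third retinoic acid receptor, Rarb.

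Among the carriers, Rbp4, the serum carrier of retinol, fell. Its signals were 4353, 5350, 7879 and 8476 on the erythroid arrays of pairs 1 to 4, against 8730, 10191.7, 21166 and 14623 on the epithelial arrays. The groups did not overlap, and the difference was -1.07 ± 0.12 (SE, lower in 4 of 4 pairs, limma adjusted p = 0.00101), averaging -0.95 over pairs 1 and 2 and -1.20 over pairs 3 and 4. Without the pair in the fit the adjusted p was 0.125. Rbp4 and Ttr are also on the list of visceral endoderm markers counted above, so that count and these values are not separate results.

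Ttr, the serum protein that carries Rbp4, was at -0.20 ± 0.07 (adjusted p = 0.083) on its brightest probe set, where it averaged 28477 in erythroid captures and 29130 in epithelial ones, and its other 2 probe sets fell. One of these was at -1.498 ± 0.19 (adjusted p = 0.00139), averaging 4521 in erythroid and 12662 in epithelial captures without overlap, and the other at -0.40 ± 0.08 (adjusted p = 0.0125). Fabp5, a fatty acid binding protein that can also carry retinoic acid, was the gene that rose, with signals of 26486, 27149, 36389 and 15020 on the erythroid arrays of pairs 1 to 4, against 22369, 13751, 16979 and 9364 on the epithelial arrays. The difference was 0.61 ± 0.11 (higher in 4 of 4 pairs, adjusted p = 0.00501). The call ended with each array centred on its median (0.57, adjusted p = 0.179) and without a variance trend (adjusted p = 0.114). A less bright probe set gave 1.88 (adjusted p = 0.00148), averaging 1.29 over pairs 1 and 2 and 2.48 over pairs 3 and 4. This probe set passed the test of the change between the sets of pairs (1.20 ± 0.29, adjusted p of the limma interaction 0.0446). The brightest Fabp5 probe set did not (0.39 ± 0.17, adjusted p of the limma interaction 0.338).

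Among genes of uptake, Lrp2 fell. It encodes megalin, an endocytic receptor that takes up the retinol carrier in the kidney. Its signals were 317, 518, 338 and 324 on the erythroid arrays of pairs 1 to 4, against 788, 840, 1138 and 1268 on the epithelial arrays, with no overlap. The difference was -1.44 ± 0.26 (lower in 4 of 4 pairs, adjusted p = 0.00548). Scarb1, of the same group, was not called on its brightest probe set (-0.50 ± 0.16, lower in 4 of 4 pairs, limma adjusted p = 0.0577). Its less bright probe sets fell (-1.05, adjusted p = 0.0403, and -0.77, adjusted p = 0.0268). Cd36 and Bco1 were not called.

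Of 10 genes tested for the step between retinol and retinal, 2 fell and 0 rose, beside 8.87% lower and 6.03% higher over all genes. Adh1, an alcohol dehydrogenase that oxidises retinol, had signals of 127, 182, 146 and 131 on the erythroid arrays of pairs 1 to 4, against 243, 510, 1494 and 429 on the epithelial arrays. The groups did not overlap, and the difference was -1.92 ± 0.36 (adjusted p = 0.00655, or 0.0513 without a variance trend, which ended the call). Rdh10, the retinol dehydrogenase that mouse embryos depend on for retinoic acid, had 436, 458, 547 and 495, against 775, 832, 676 and 939 on the epithelial arrays, also without overlap. Its difference was -0.73 ± 0.21 (lower in 4 of 4 pairs, adjusted p = 0.0428), and the call ended without any 1 of the 4 pairs (adjusted p = 0.0517 to 0.196), without the pair in the fit (0.0962), with no filter (0.0603) and without a variance trend (0.0821).

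No gene of retinal oxidation was tested. Aldh1a3, the third retinal dehydrogenase, was above background on 2 erythroid and 0 epithelial arrays at its brightest probe set. Cyp2s1, a cytochrome reported to metabolise retinoic acid, fell by 1.04 on the log2 scale (SE 0.28, adjusted p = 0.034), and averaged 198 in erythroid captures, against 382 in epithelial ones. Its call ended without replicate 1 (0.0844), without replicate 2 (0.0897), without replicate 4 (0.19), without the pair in the fit (0.168), with the deposited scaling (0.0585), with no filter (0.0761) and without a variance trend (0.0757).

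Of the retinoid X receptors, Rxra was at -1.13 ± 0.38 (lower in 4 of 4 pairs, limma adjusted p = 0.0764), with 2 of 4 erythroid and 4 of 4 epithelial arrays above background. A second Rxra probe set split, with 2 pairs higher and 2 lower. Rxrb was at -0.29 ± 0.28 (adjusted p = 0.547), and averaged 755 in erythroid captures, against 893 in epithelial ones. Rxrg was above background on 0 erythroid and 2 epithelial arrays.

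**Figure D4:**
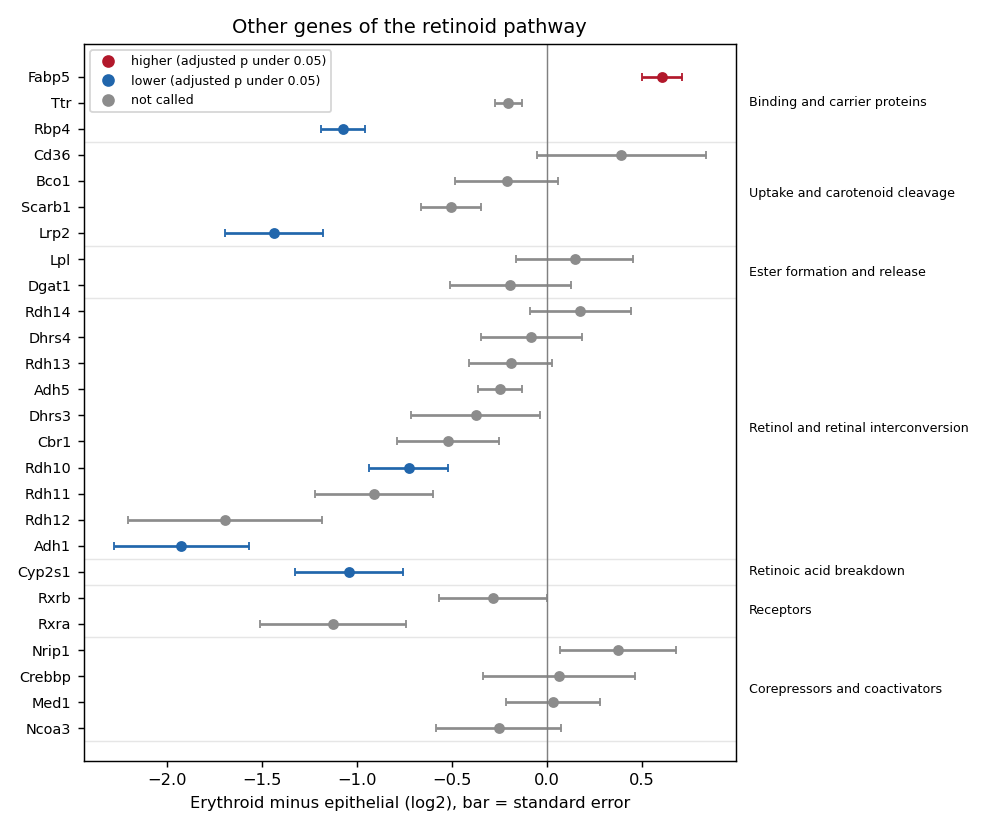
Erythroid minus epithelial difference (log2, points) with its standard error (bars) for the 26 other pathway genes tested, grouped by role, in red where higher and blue where lower at an adjusted p under 0.05 and in grey where not called. Fabp5 is the red point, and Rbp4, Lrp2, Adh1, Rdh10 and Cyp2s1 are the blue ones.

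Genes known to respond to retinoic acid, each read from its brightest tested probe set, gave no call. Of 25 listed, 20 were measured and 10 tested, and 0 rose or fell in the limma fit, beside 14.9% of all genes. An unadjusted p under 0.05 was found for 2 of the 10, beside 31.1% of all genes, and their median was 0.26. With so few tested, these counts do not set the list apart from other genes. Read this way, those furthest from 0 were Foxa1, an endoderm transcription factor, at -1.34 ± 0.44 (adjusted p = 0.0689), Tshz1 at 0.61 ± 0.28 (adjusted p = 0.172) and Zfp503 at 0.50 ± 0.30 (adjusted p = 0.295). A second Tshz1 probe set, which missed the filter, had the opposite sign (-0.66, SD 0.99, n = 4 pairs) and was above background on 3 of 8 arrays. Foxa1 averaged -0.38 over pairs 1 and 2 and -2.29 over pairs 3 and 4, and passed without replicate 1 (-1.77, adjusted p = 0.0412) and with each array centred on its median (-1.42, adjusted p = 0.0416). Tgm2, a transglutaminase, had 1 of 5 tested probe sets that rose, with signals of 2948, 3061, 2694 and 2796 on the erythroid arrays of pairs 1 to 4, against 2031, 2430, 709 and 1835 on the epithelial arrays. Its groups did not overlap, and the difference was 0.89 ± 0.25 (SE, higher in 4 of 4 pairs, limma adjusted p = 0.0411). The brightest Tgm2 probe set was at 0.42 ± 0.15 (adjusted p = 0.0842).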

How the data were processed

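The authors deposited 1 intensity (MAS5 signal, linear scale) per probe set and array, made with GCOS, MAS5 and affy as named in the submitters' processing notes, with versions not given in the sources used here. Each array had been scaled to a trimmed mean of 500 (2% cut from both tails). Of 22690 probe sets, 64 controls were left out. Gene symbols came from the platform annotation, updated through gene identifiers, and probe sets annotated to several genes stayed unnamed.

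Before log2, 8.14 was added (the 10th percentile over all arrays), and the arrays were quantile normalised, since their medians spanned 0.59. Probe sets at their array's median or above on at least 4 of 8 arrays (11449) were fitted in R 4.3.3 with limma 3.58.1 (lmFit, then eBayes with trended variances) on pair and cell type. P-values are two-sided, with the Benjamini-Hochberg method applied to the whole tested set (threshold 0.05), and the procedure was tested on simulated data. Differences are erythroid minus epithelial, on the log2(value + offset) scale, which understates changes of dim genes. A gene was read from its brightest tested probe set. Precision is limited by having 4 arrays a group.

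Pairing comes from the labels' protocols. After subtracting group means, the 2 arrays of pairs 1 to 4 correlated at 0.44, 0.34, 0.32 and 0.54, arrays of different pairs of the same set (1 and 2, or 3 and 4) at 0.28 to 0.35, and arrays across the sets at -0.45 to -0.29, so the values part the sets more than the single pairs.

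Members, lists and the split of the pairs were chosen with earlier results of these data known. Named were all members, a fixed set and the largest changes of each list. Cyp2s1 completes a small count, and the neural and trophoblast genes, Tgm2, Lpl, Scarb1, Cd36 and Bco1 were named after their values were seen. Protein sequences were not used here.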

Additional observations from a re-analysis of the deposited data

Results flagged for a closer look

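Single arrays stood apart from the other 3 of their group, with a gap to the nearest array, as a share of the group's range, above Dixon's 95% critical value, for Crabp1 (1872 on the erythroid array of pair 1), Crabp2 (1814 on the same array), Stra6 (49.1 on the epithelial array of pair 2), Aldh1a1 (67.7 on the epithelial array of pair 3) and Rarg (277 on the erythroid array of pair 3). Among the other genes named, so did Lrp2 (518 on the erythroid array of pair 2) and Rarb (38.5 on the erythroid array of pair 1). The values of Stra6, Aldh1a1 and Rarb lie under the background level. Chance gives such a gap in about 1 of 20 groups, and 9.04% of all probe sets showed one in erythroid and 7.85% in epithelial captures. The difference of Crabp2 between captures differed by -3.82 on the log2 scale between pairs 3 and 4 and pairs 1 and 2 (limma adjusted p = 0.00222).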

How the results depend on the processing

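With 0 member calls over all pairs, calls arose in subsets alone: Crabp2 in pairs 1 and 2 (1 higher), and Rarg and Crabp2 in pairs 3 and 4 (1 higher, 1 lower). The other settings gave 0 member calls. Of all 11449 probe sets, the fit of pairs 1 and 2 called 475 higher and 543 lower, and that of pairs 3 and 4 called 1402 and 1457. Crabp2 was at 1.73 in pairs 1 and 2, and between -1.11 and 0.49 with 1 pair left out (0.42 without replicate 3). Its interaction was called with the deposited scaling, median centring, offset 32, no filter and a filter on the background level, but not without a variance trend (0 members called). Without replicate 1 it was -2.95, where pair 2 alone gives no spread within its set. The interaction was not run without the block or without replicates 2, 3 or 4. Dhrs3 was at 0.40 in pairs 1 and 2, and Rxrb at 0.10 in pairs 3 and 4 and between -0.46 and 0.11 with 1 pair left out. The pathway list (1 higher, 5 lower) had 0 higher and 8 lower with arrays centred on the median, which put the median of the tested probe sets at -0.11 instead of 0.02, 3 lower with no filter, 2 lower with no replicate block, 0 higher and 2 lower without a variance trend, 3 to 4 lower with 1 pair left out, 3 lower in pairs 1 and 2, 2 higher and 8 lower in pairs 3 and 4, and 8 lower with the mean of probe sets. Over all probe sets (710 higher, 881 lower) there were 455 higher with median centring (29.3% of calls, against 44.6%), 160 and 285 with no replicate block, 180 and 339 without a variance trend, 202 to 690 and 333 to 831 with 1 pair left out (fewest without replicate 4), 543 lower when pairs 1 and 2 were fitted alone, and 1402 and 1457 when pairs 3 and 4 were. Fits with fewer pairs have fewer arrays, and the cause of the other changes was not tested. The pair term changed no call of a member. Signal near background limits 8 of the 10 member probe sets: a difference there was not detectable at this signal, not shown to be absent.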
